A study of Mus musculus with 6 samples.

Results

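The 10 genes described here encode proteins of the secondary (specific) and tertiary (gelatinase) granules of neutrophils, together with the surface protein Cd177. They were taken by name as the rows of Ltf, Lcn2, Camp, Ngp, Chil3, Mmp8, Mmp9, Cd177, Hp and Pglyrp1, and all 10 were found among the 24454 genes of the table and passed the filter on low values that left 12642 genes. Levels were compared between leukaemic blasts that carry an inducible Stat3β transgene (Stat3β TG) and wild-type blasts (WT), with 3 libraries each. STAT3 is a transcription factor activated by cytokines such as G-CSF, and Stat3β is its C-terminally truncated isoform.

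Stat3β TG cells were fetal liver-derived cells of C57BL/6 mice with Mx1-Cre recombinase and the Stat3β transgene, and WT cells were those of wild-type littermates, for which the labels name no Cre. Cells of both groups carried a retrovirus with the fusion oncogene MLL-AF9 and were transplanted into NSG mice (NOD.Cg-PrkdcscidIl2rgtm1Wjl/SzJ), which lack lymphocytes of their own but keep host myeloid cells. The recipients received polyinosine-polycytidine 4 weeks after transplantation to induce Cre, an agent that also induces interferon. At 6 weeks, bone marrow blasts were sorted for the Venus reporter. The ages and sexes of the mice are not given in the labels, nor whether libraries came from separate recipients. The p-values therefore reflect library-to-library spread, which may be technical in part. The WT libraries were not all of the same cells, since sex-linked genes, given below, set WT 2 apart from WT 1 and WT 3. A lower level in bulk RNA can mean fewer maturing cells or less RNA per cell, and these cannot be told apart.

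Neutrophils fill their granules in the order in which they mature. Primary granules, with myeloperoxidase and elastase, form in promyelocytes, specific granules in myelocytes and metamyelocytes, and gelatinase granules later still. The transcription factor C/EBPε is needed for secondary granule genes in the mouse, and MLL-AF9 blasts are myeloid cells held short of full maturation. The secondary and tertiary granule proteins limit iron, bind microbial products, cut extracellular matrix and kill bacteria.

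Between 21809788 and 51934498 reads per library were recovered from the deposited normalized counts with the deepest in Stat3β TG. No member was rare, with between 954 and 547942 reads in a library, so counting error was small beside the spread between libraries. Group was not the only source of difference between libraries. On the first principal component, with 47.1% of the variance, WT 1 lay at -38.1 beside the Stat3β TG libraries at -31.1, -16.2 and -28.1, far from WT 2 at 64.1 and WT 3 at 49.3. Summed over 4 genes of the Y chromosome, normalized counts lay between 8781 and 9465 in Stat3β TG and came to 11012 in WT 2. They came to 58.8 in WT 1 and 71.8 in WT 3. The female-expressed gene Xist was at 42700 in WT 1 and 45196 in WT 3, at 835 in WT 2 and at 71.6 or less in Stat3β TG. By these genes the cells were mainly male in Stat3β TG and WT 2, and female in WT 1 and WT 3. Sex and group were thus partly confounded and cannot be fully told apart. Results that turn on WT 1 or WT 2 are therefore given with and without them. Stat3, whose level sums both splice forms, was at 11129, 9846 and 8034 normalized counts in Stat3β TG, against 8058, 16112 and 10879 in WT, with no difference past the test (limma adjusted p = 0.771).

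The promoter sequences of 8 members were matched by gene ID in the RefSeq table (GRCm38.p6), as windows from 250 bases before to 50 bases after the annotated start of transcription. Mmp9 and Hp are named only. Shown are the 4 windows that held a searched motif, in capitals, and that of Cd177, the member with the smallest p in the comparison of the groups.
Ltf, chr9:111019042-111019341, plus strand, C/EBP motif in capitals: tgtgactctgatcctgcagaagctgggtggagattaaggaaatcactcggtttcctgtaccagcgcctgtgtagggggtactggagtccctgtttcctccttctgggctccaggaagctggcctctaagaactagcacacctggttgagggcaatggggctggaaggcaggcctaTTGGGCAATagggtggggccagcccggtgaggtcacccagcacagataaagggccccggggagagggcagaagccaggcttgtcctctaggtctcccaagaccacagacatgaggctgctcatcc
Ngp, chr9:110419558-110419857, plus strand, C/EBP motif in capitals: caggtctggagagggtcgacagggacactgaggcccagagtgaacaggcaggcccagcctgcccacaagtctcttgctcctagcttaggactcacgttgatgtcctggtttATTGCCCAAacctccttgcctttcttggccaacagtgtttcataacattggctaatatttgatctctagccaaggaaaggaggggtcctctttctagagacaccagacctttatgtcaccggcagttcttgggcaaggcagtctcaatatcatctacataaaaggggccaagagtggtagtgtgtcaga
Chil3, chr3:106167515-106167814, minus strand, STAT motif in capitals: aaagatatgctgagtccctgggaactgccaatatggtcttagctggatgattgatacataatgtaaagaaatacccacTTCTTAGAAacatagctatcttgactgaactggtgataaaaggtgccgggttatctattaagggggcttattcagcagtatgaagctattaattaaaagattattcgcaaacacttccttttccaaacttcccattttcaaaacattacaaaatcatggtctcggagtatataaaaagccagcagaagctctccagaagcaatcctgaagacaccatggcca
Mmp8, chr9:7558179-7558478, plus strand, ETS motif in capitals: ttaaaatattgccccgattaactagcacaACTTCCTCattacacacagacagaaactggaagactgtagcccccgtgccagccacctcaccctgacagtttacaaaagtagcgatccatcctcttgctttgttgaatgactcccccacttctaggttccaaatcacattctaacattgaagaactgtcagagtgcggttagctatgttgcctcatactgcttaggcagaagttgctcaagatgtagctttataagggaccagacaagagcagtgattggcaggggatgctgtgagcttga
Cd177, chr7:24760262-24760561, minus strand, none of the motifs searched: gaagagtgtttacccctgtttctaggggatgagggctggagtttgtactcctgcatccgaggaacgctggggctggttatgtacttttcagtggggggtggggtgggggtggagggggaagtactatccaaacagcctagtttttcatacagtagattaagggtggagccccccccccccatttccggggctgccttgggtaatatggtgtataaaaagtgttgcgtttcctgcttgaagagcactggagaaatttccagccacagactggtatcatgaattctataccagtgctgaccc
The search covered both strands for TTCNNNGAA (STAT), TTNNGCAAT and TTGCGCAA (C/EBP, which overlap each other), GAGGAAGT (ETS, the family of PU.1) and AACCACA (RUNX). The C/EBP motif TTNNGCAAT was found in 2 of 8 member windows and in 2.18% of 32851 windows in the table. It lay at -75 to -67 in Ltf on the strand of the gene and at -139 to -131 in Ngp on the other strand. The STAT motif was found in 1 of 8, at -172 to -164 in Chil3, and in 8.30% of all windows. The ETS motif was found in 1 of 8, at -221 to -214 in Mmp8 on the other strand, and in 3.20% of all windows. Only for Mmp8 was the transcribed end of the window not found unbroken in a GENCODE transcript of the gene. The place of its motif relative to the start is therefore less certain. TTGCGCAA and AACCACA were in 0 of 8, against 0.183% and 5.27% of all windows. A match describes letters only and is not a bound site, and the lack of a match says nothing of the factor.

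All 10 granule genes had a higher mean log2 level in Stat3β TG than in WT blasts, but no member passed the test over all genes. The limma estimates ran between 3.72-fold for Ltf and 1.11-fold for Hp, and their median was 0.90 on the log2 scale (1.86-fold), against 0.01 over all 12642 genes tested. A log2 fold change above 0 was found for 51.4% of those genes. By limma 0 of 10 members had an adjusted p under 0.05, as did 0% of all genes, and the members' adjusted p ran between 0.668 and 0.787. At an unadjusted p under 0.05, limma gave 4 of 10 members (Ltf, Chil3, Mmp8 and Cd177), all higher in Stat3β TG, against 3.56% of all genes higher at that level. With edgeR 0 members passed adjusted, against 0% of all genes. At an unadjusted p under 0.05 edgeR gave 5 (Lcn2, Chil3, Mmp8, Mmp9 and Cd177, without Ltf), against 2.59% of all genes as higher. DESeq2 passed 1 member, Cd177, where it passed 0.0712% of all genes as higher, and gave the same 5 as edgeR unadjusted, where it gave 3.33%. In 2 of 10 members (Mmp8 and Cd177) every Stat3β TG library lay above every WT library, as in 5.87% of all genes. The count at an unadjusted p under 0.05 was 2 without Stat3β TG 1 and 2 without WT 2, where 1.35% and 1.98% of all genes were higher at that level.

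**Figure D1:**
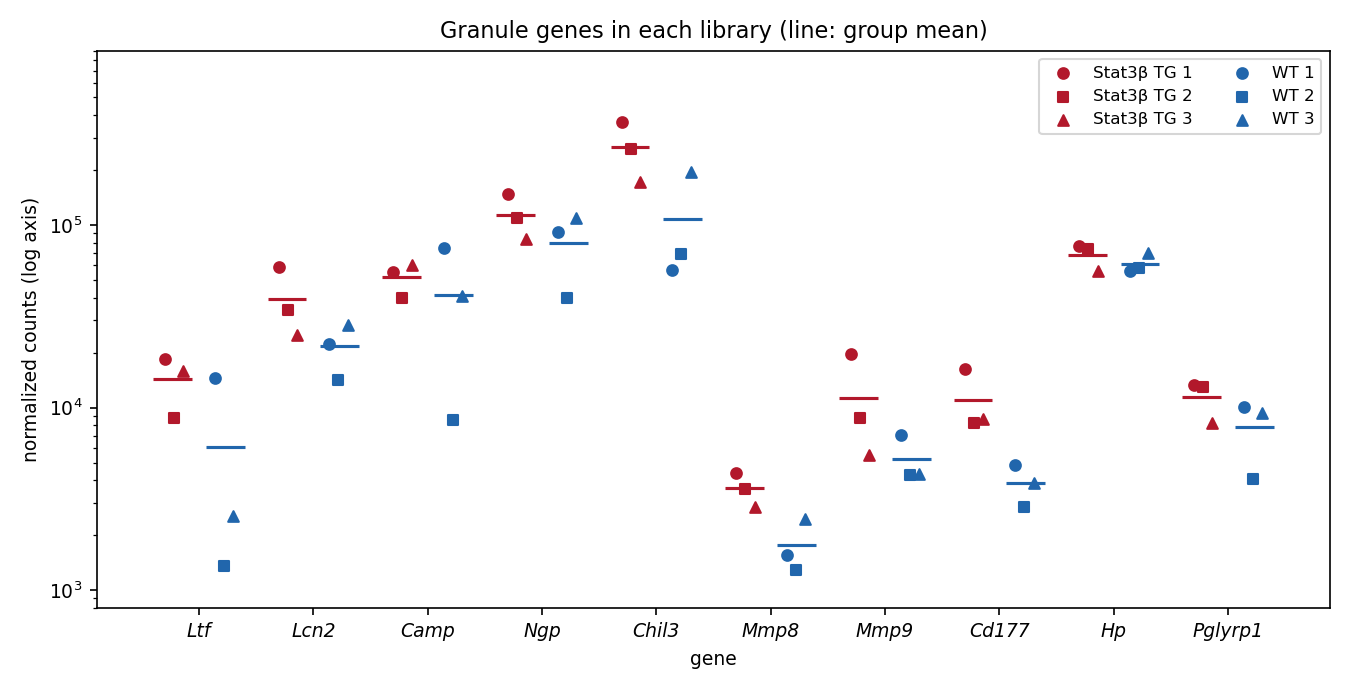
Normalized counts (log axis) of the 10 granule genes in each library, with Stat3β TG libraries in red on the left of each gene, WT libraries in blue on the right, and lines at the group means. Only in Mmp8 and Cd177 do all 3 red points lie above all 3 blue points, and WT 2 (blue square) is the lowest point for 8 of the 10 genes.

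In most members 2 libraries stood at the ends of the range. Stat3β TG 1 was the highest of the 6 libraries in 9 of 10 members, all but Camp, and WT 2 was the lowest in 8, all but Chil3 and Hp. Within their group, the Stat3β TG libraries were lowest at Stat3β TG 3 in 7 members and at Stat3β TG 2 in 3. WT 2 lay below the Stat3β TG range in 9 members and within it for Hp. WT 1 lay below that range in 5 members (Lcn2, Chil3, Mmp8, Cd177 and Hp), within it in 4 and above it for Camp. WT 3 lay below it in 4 (Ltf, Mmp8, Mmp9 and Cd177) and within it in 6. Summed over the members, normalized counts came to 776834, 558927 and 437272 in Stat3β TG 1 to 3, against 339058, 203855 and 467094 in WT 1 to 3. The sums of the groups overlapped, since WT 3 exceeded Stat3β TG 3. The members took 2.49%, 1.84% and 1.50% of all recovered reads in Stat3β TG, and 1.16%, 0.690% and 1.52% in WT. Set against WT 2 alone, the WT library that shares the Y-linked reads of Stat3β TG, limma passed 3 members (Ltf, Camp and Mmp8), where 4.43% of all genes passed as higher. Set against WT 1 alone it passed 0, where 0.0486% of all genes passed as higher, with 3 at an unadjusted p under 0.05, where 2.06% of all genes were higher at that level. In both fits the lone WT library is assumed to vary like the others.

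**Figure D2:**
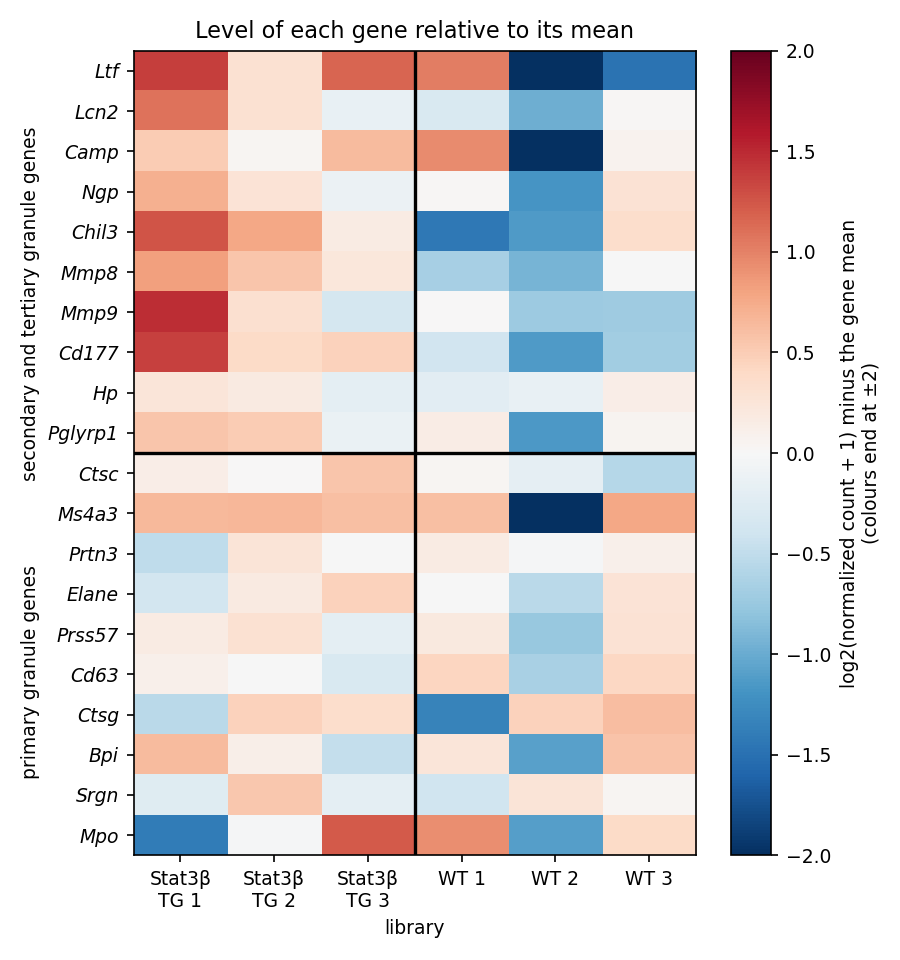
Colours show log2(normalized count + 1) minus the mean of each gene over 6 libraries, with Stat3β TG libraries in the left columns and WT libraries in the right columns. The 10 secondary and tertiary granule genes stand above the line and the 10 primary granule genes below it. WT 2 is blue for most genes in the upper block, and Stat3β TG 1 is red throughout that block.

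Among the iron-binding and haem-linked members, Ltf had the largest estimate and the widest spread, and Hp the smallest of both. Ltf (Entrez 17002; chromosome 9, 111019292 to 111042766, plus strand, GRCm38) encodes lactoferrin, which binds iron. It was at 18489.9, 8727 and 15867.5 normalized counts in Stat3β TG 1 to 3, and at 14473, 1348 and 2537 in WT 1 to 3. WT 1 lay inside the Stat3β TG range, while WT 2 and WT 3 were far below it. The means were 14362 ± 5053 in Stat3β TG and 6119 ± 7259 in WT (SD, n = 3 each), and limma gave a log2 fold change of 1.90 ± 0.78 (SE; adjusted p = 0.668). Without WT 1 the log2 fold change of Ltf was 2.89 and passed (limma adjusted p = 0.0411), as 1.6% of all genes did in that direction, and against WT 1 alone it was -0.08. Without WT 2 it was 1.17 (limma unadjusted p = 0.136), and the unadjusted p was also over 0.05 without Stat3β TG 1, Stat3β TG 3 or WT 3. On the recovered reads edgeR and DESeq2 each gave Ltf a log2 fold change of 1.22 (unadjusted p = 0.160 by edgeR and 0.219 by DESeq2), below their values for Cd177 and Chil3. Its WT libraries differed 10.7-fold from lowest to highest, against 2.12-fold between its Stat3β TG libraries.

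Lcn2 (Entrez 16819; chromosome 2, 32384637 to 32387739, minus strand) encodes lipocalin 2, which binds the iron carriers that bacteria secrete. Its levels were 58974, 34321.5 and 25002 normalized counts in Stat3β TG, and 22426, 14132.5 and 28332 in WT. WT 3 exceeded Stat3β TG 3, so the groups overlapped. Its estimate was 1.78-fold with a 95% interval of 0.997 to 3.18 (limma adjusted p = 0.668). Hp (Entrez 15439; chromosome 8, 109575128 to 109579172, minus strand) encodes haptoglobin, which binds free haemoglobin. It stood at 76481, 73402 and 56207 normalized counts in Stat3β TG, against 55730.4, 58004 and 70496 in WT. The groups interleaved, and WT libraries differed no more than 1.26-fold. The estimate was a log2 fold change of 0.16 and a 95% interval of -0.29 to 0.60 (limma adjusted p = 0.787). After quantile normalization the sign of the Hp value was turned, to -0.06. Cd163, which encodes the receptor for haptoglobin-haemoglobin complexes, was low, at 30.8, 57.9 and 243 normalized counts in Stat3β TG and 178, 294 and 335 in WT (limma adjusted p = 0.668).

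Other genes of iron handling went in both directions. Of 12 listed, 11 were tested, with 7 higher and 4 lower in Stat3β TG and a list median of 0.15 (log2). At an unadjusted p under 0.05 there were 2 higher and 0 lower, against 3.56% of all genes higher and 2.54% lower, and 0 passed adjusted. Slc11a1, a metal transporter of phagocyte granules and phagosomes, was at 778, 432 and 401 normalized counts in Stat3β TG and 346, 278 and 266 in WT. Hmox1, which degrades haem, was at 1074, 1001 and 1296 in Stat3β TG and 730.3, 816 and 896 in WT. The groups did not overlap for either gene. The transferrin receptor gene Tfrc was at 4519, 4547 and 3630.5 in Stat3β TG and at 4566, 4703 and 5778 in WT, with all Stat3β TG libraries below all WT libraries, as in 4.92% of all genes (limma adjusted p = 0.675). The ferritin light chain gene Ftl1 overlapped between groups, with a mean of 13634 in Stat3β TG and 16601 in WT.

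The antimicrobial members Camp, Ngp and Pglyrp1 had their lowest level in WT 2 and did not separate the groups. Camp (Entrez 12796; chromosome 9, 109847377 to 109849456, minus strand) encodes the precursor of cathelicidin, a peptide that breaks bacterial membranes. It was at 55281, 39862 and 60099 normalized counts in Stat3β TG, against 74674, 8497 and 41019 in WT. Here WT 1 was the highest of all libraries and WT 2 the lowest, 8.79-fold apart. The log2 fold change of 0.78 had a 95% interval of -0.84 to 2.40 (limma adjusted p = 0.714), and its sign depended on WT 2, without which it was -0.12. Against WT 2 alone it was 2.58, while against WT 1 alone it was -0.55.

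Ngp (Entrez 18054; chromosome 9, 110419808 to 110423012, plus strand), neutrophilic granule protein, is related to the cathelicidins. It was at 147359, 109322 and 83411 normalized counts in Stat3β TG and at 91302, 39637 and 109577 in WT. The WT libraries other than WT 2 lay inside the Stat3β TG range. Its fold change was 1.50 with a 95% interval of 0.795 to 2.84 (limma adjusted p = 0.675). Pglyrp1 (Entrez 21946; chromosome 7, 18884690 to 18890438, plus strand) encodes a protein that binds bacterial peptidoglycan. It was at 13283, 12925 and 8267 in Stat3β TG, against 10042, 4087 and 9376 in WT. Again only WT 2 lay below the Stat3β TG range. The fold change was 1.54 with an interval of 0.865 to 2.76 (limma adjusted p = 0.668). Without WT 2 the log2 fold changes were 0.14 for Ngp and 0.21 for Pglyrp1.

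Chil3 had the highest mean normalized count of all 24454 genes. The gene (Entrez 12655; chromosome 3, 106147554 to 106167564, minus strand) encodes Ym1, a chitinase-like lectin of mouse neutrophil precursors and macrophages. It was at 366721, 259752 and 171429 normalized counts in Stat3β TG, and at 56955, 69753 and 195143 in WT. Both WT 1 and WT 2 lay far below the Stat3β TG range, but WT 3 lay inside it. The means were 265967 ± 97794 in Stat3β TG and 107284 ± 76357 in WT (SD, n = 3 each), and limma gave a log2 fold change of 1.47 ± 0.48 (SE; adjusted p = 0.668). This estimate stayed between 1.12 and 2.01 when each library was left out in turn. By itself Chil3 held 47.2%, 46.5% and 39.2% of the members' summed counts in Stat3β TG, against 16.8%, 34.2% and 41.8% in WT. Its paralog Chil4 is closely similar, so reads can be shared or lost between them. Chil4 was listed at 48.2, 35.7 and 16.9 normalized counts in Stat3β TG and at 8.71, 5.41 and 37.99 in WT. Another family member, Chil1, was at 7624, 6014 and 4501 in Stat3β TG and at 6745, 2031 and 94.3 in WT. Its level in WT 1 lay within the Stat3β TG range and in WT 3 was the lowest by far.

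Mmp8 was 1 of the 2 members whose groups did not overlap. The gene (Entrez 17394; chromosome 9, 7558429 to 7568486, plus strand) encodes neutrophil collagenase, a specific granule enzyme that cuts fibrillar collagen. It was at 4361, 3595 and 2862.5 normalized counts in Stat3β TG, and at 1551, 1291 and 2449.9 in WT. The gap was narrow, between Stat3β TG 3 and WT 3. The log2 fold change was 1.06 with a 95% interval of 0.45 to 1.67 (limma adjusted p = 0.668, 32nd smallest p of all genes), and ran between 0.87 and 1.33 with each library left out in turn. Against WT 2 alone it was 1.46.

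Mmp9 (Entrez 17395; chromosome 2, 164940326 to 164955850, plus strand) encodes gelatinase B, the enzyme that names the gelatinase granule. It was at 19666.5, 8816 and 5500.2 normalized counts in Stat3β TG, and at 7068, 4248 and 4309 in WT. Stat3β TG 1 stood far above the other libraries, and WT 1 exceeded Stat3β TG 3. The fold change was 1.95 with a 95% interval of 0.959 to 3.95 (limma adjusted p = 0.668), and its log2 value was 0.46 without Stat3β TG 1. Tissue inhibitors of metalloproteinases were scarce, and 2 of 5 listed inhibitor genes were tested. Timp2 was at 946, 629 and 323 in Stat3β TG and at 586, 284 and 115 in WT, while Reck, a membrane-anchored inhibitor, averaged 159 and 157. The inhibitor genes Timp1, Timp3 and Timp4 lay under the filter, at 21.7 or less in every library.

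Cd177 was the most separated member. The gene (Entrez 68891; chromosome 7, 24743983 to 24760334, minus strand) encodes a surface protein of neutrophils that is also stored in specific granules, and that binds proteinase 3 and PECAM-1 in humans. It was at 16218, 8205 and 8627 normalized counts in Stat3β TG, and at 4837, 2856 and 3857 in WT. Each Stat3β TG library lay above all WT libraries, with Stat3β TG 1 apart from the other two. The log2 fold change was 1.48 with a 95% interval of 0.78 to 2.17, the 9th smallest p of all genes (limma adjusted p = 0.668). DESeq2 passed it (log2 fold change 1.51, adjusted p = 0.00383) and edgeR did not (adjusted p = 0.688). The DESeq2 call was lost without Stat3β TG 1 (log2 fold change 1.12, adjusted p = 0.0639). DESeq2 kept it without each of the other 5 libraries, but closely without WT 3 (adjusted p = 0.0490) and WT 2 (adjusted p = 0.0369). Without the rest the DESeq2 adjusted p ran between 4.14e-05 and 0.0106. Its partner genes Prtn3 and Pecam1 did not separate the groups. Prtn3 averaged 49406 in Stat3β TG and 54258 in WT, and Pecam1 was at 4198, 3722 and 5203 in Stat3β TG and 5251, 2943 and 4296 in WT.

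**Figure D3:**
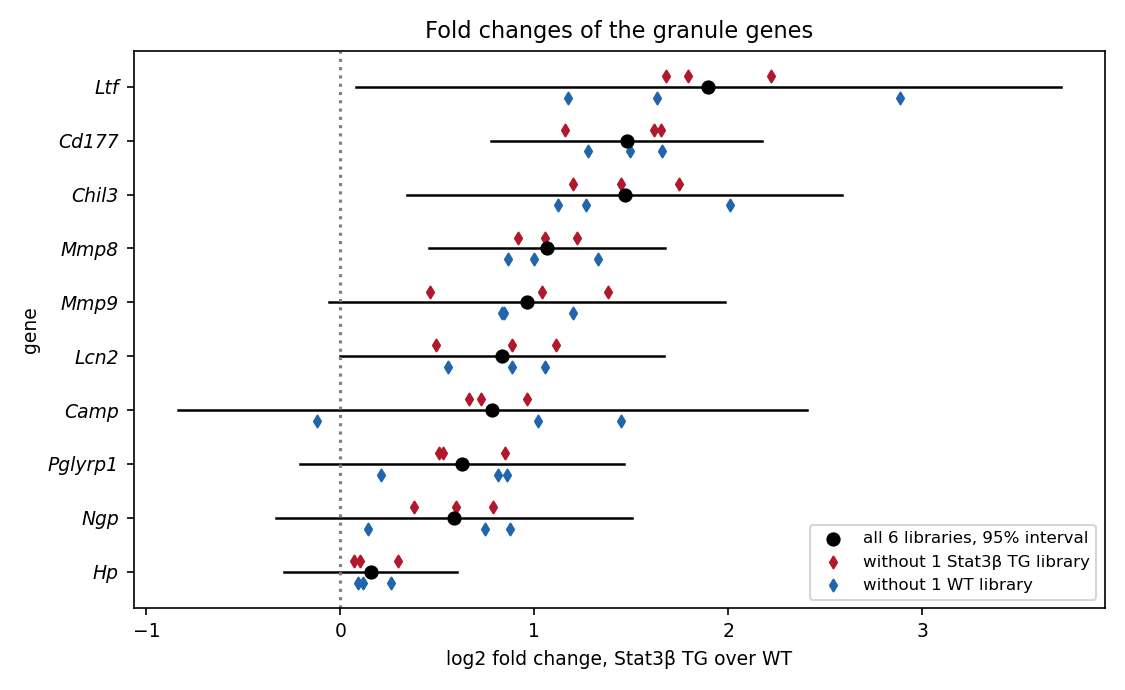
Log2 fold changes of Stat3β TG over WT for the 10 granule genes, with black points for all 6 libraries, lines for the 95% intervals of limma, and diamonds for the values without 1 library. The intervals of Ltf, Cd177, Chil3 and Mmp8 lie above 0, and Camp is the gene with a diamond below 0, at -0.12 without WT 2.

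Receptors and partners of the granule proteins lay on both sides. Of 11 listed receptor and partner genes, 9 were tested, 6 higher and 3 lower, and the median of their log2 fold changes was 0.10. By limma 0 passed adjusted. At an unadjusted p under 0.05 there were 2 higher and 1 lower, against 3.56% and 2.54% of all genes. Trem1, which encodes an activating receptor that PGLYRP1 binds, was at 5946, 7601 and 2347 normalized counts in Stat3β TG and 1504, 3530.4 and 2050.2 in WT, and Stat3β TG 3 lay within the WT range. The formyl peptide receptor gene Fpr2, whose protein also binds cathelicidin peptides, was at 1165, 1012 and 1052 in Stat3β TG and 359, 310.0 and 253 in WT, without overlap. Its p was the smallest of all genes but did not pass by limma (adjusted p = 0.294), while DESeq2 passed it (adjusted p = 1.28e-11). The lipocalin 2 receptor gene Slc22a17 was at 154, 257 and 88.2 in Stat3β TG and 245, 181 and 71.8 in WT, and Lrp2, the other lipocalin 2 receptor gene, was at 3.37 or less. The integrin genes Itgam and Itgb2 overlapped between groups.

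Per kilobase of exon, the members kept nearly the same order of levels in both groups. The normalized counts per kilobase averaged 172818 in Stat3β TG and 69710 in WT for Chil3, then 92769 and 65607 for Ngp, 68268 and 54613 for Camp, and 51076 and 45658 for Hp. Lcn2 followed at 43096 in Stat3β TG and 23639 in WT, and Pglyrp1 at 16559 and 11290. Ltf was at 5127 and 2185, Cd177 at 4059 and 1419, Mmp9 at 3568 and 1640.4, and Mmp8 at 1487 and 727. In Stat3β TG every neighbouring pair in this order overlapped over the libraries except Lcn2 with Pglyrp1 and Pglyrp1 with Ltf. In WT, Mmp9 stood above Cd177, and the pairs Hp with Lcn2, Lcn2 with Pglyrp1, Pglyrp1 with Ltf and Cd177 with Mmp8 were apart. The lactoferrin and metalloproteinase genes were thus far below the cathelicidin genes in both groups, apart from any difference between them.

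The members did not all vary alike. As a measure of likeness, the root mean square difference was taken between log2 profiles over the 6 libraries, each centred on its own mean, and it is given as a description. It takes in the size of the spread as well as its pattern. Ngp and Pglyrp1 were the closest pair, at 0.16, followed by Lcn2 and Ngp at 0.24 and Lcn2 and Mmp8 at 0.26. The most distant pairs were Ltf with Hp at 1.43, Ltf with Chil3 at 1.43, and Ltf with Mmp8 at 1.19. Ltf and Camp shared a high WT 1, where Chil3 had its lowest value. Outside the members, among 10259 genes with a mean of at least 100 normalized counts, the 5 closest to the median profile of the members were Pi16, Ptpn12, Gatm, Stfa2l1 and Rdh12, at 0.12 to 0.17. The median distance over those genes was 0.67, and the members' own distances from their median profile ran between 0.14 and 1.05. Pi16 was at 6580.3, 4604 and 3538 in Stat3β TG and 3796, 1584 and 3236 in WT. Its lowest value was in WT 2, which follows from its choice by likeness to the members' profile.

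The primary granule genes lay closer to 0, a difference from the members that was not tested. Of 10 tested, 7 were higher and 3 lower in Stat3β TG. Their median was 0.18 (log2), and 0 had an unadjusted p under 0.05. Elane, neutrophil elastase, averaged 34551 normalized counts in Stat3β TG and 30576 in WT. Ctsc, the protease that activates granule serine proteases, was at 3724, 3401 and 4949.6 in Stat3β TG and 3486, 2994 and 2278 in WT (limma adjusted p = 0.668). Ms4a3, a gene of granulocyte-monocyte progenitors, was at 7167, 7287 and 6941 in Stat3β TG, against 6931 in WT 1, 472 in WT 2 and 7845 in WT 3. Summed member counts were 6.58, 2.91 and 2.08 times the summed primary granule counts in Stat3β TG 1 to 3, and 1.86, 1.49 and 2.44 times in WT 1 to 3. These ratios overlapped, since WT 3 exceeded Stat3β TG 3. On the log2 scale the mean difference was 0.85, and it was 0.38 without Stat3β TG 1, which had the lowest primary granule sum in its group. With all libraries but without Chil3, the member with the highest mean count, the difference was 0.55.

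Further proteins of secondary and tertiary granules lay on the same side as the members. Of 13 listed, 12 were tested and 12 were higher in Stat3β TG, with a median log2 fold change of 0.60. By limma 0 passed adjusted and 3 had an unadjusted p under 0.05, all higher, as did 3.56% of all genes in that direction. Lyz2, the lysozyme gene, was at 38725, 18519.5 and 63549 normalized counts in Stat3β TG and 21411, 9053 and 9505 in WT, and its reads can be shared with the similar gene Lyz1. Cybb, the catalytic subunit of the phagocyte oxidase, was at 29969, 17578 and 18773 in Stat3β TG and 17017.5, 8297 and 12740.4 in WT, with no overlap. Adam8, a metalloprotease of gelatinase granules, averaged 2902 in Stat3β TG and 1715 in WT, with overlap. Ptx3 was listed at 0 in all 6 libraries. This list was drawn up with results of these data known, as were the others.

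Regulators of granule genes lay mostly on the same side as well. Of 13 tested, 11 were higher and 2 lower in Stat3β TG. Their median was 0.37 (log2), and 0 passed adjusted by limma. Csf3r, the receptor for the neutrophil growth factor G-CSF, was the 1 gene at an unadjusted p under 0.05, against 3.56% of all genes higher. It was at 7743, 6282 and 5409.8 in Stat3β TG and 5471, 2645 and 3645 in WT. Klf5 was at 785, 608 and 329 in Stat3β TG and 502, 238 and 231 in WT. Runx1 averaged 3179.8 in Stat3β TG and 2037 in WT, and Myb, a factor of immature cells, 35839 and 28677.5, with overlap in each. Cebpe, chosen here for its role in secondary granules and after its values were seen, was at 10437, 7991 and 5733 in Stat3β TG and 9876, 3055 and 4718 in WT. Its WT 1 value was thus near the top of the Stat3β TG range and its WT 2 value the lowest (limma adjusted p = 0.675).

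**Figure D4:**
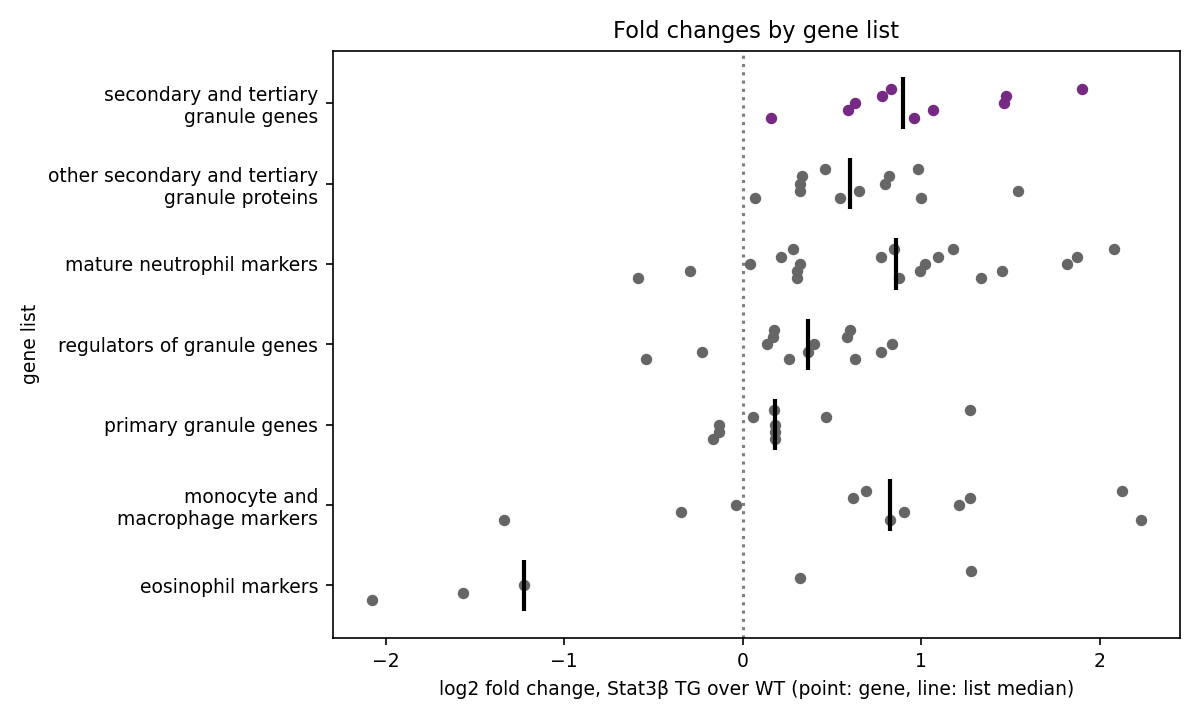
Log2 fold changes of Stat3β TG over WT by gene list, with a point per tested gene and a line at the median of the list. The 10 granule genes (purple) and the 12 other secondary and tertiary granule genes lie above 0, the primary granule median is 0.18, and the eosinophil marker median is -1.23.

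Markers of mature neutrophils mostly stood higher in Stat3β TG along with the granule genes. None of the 20 markers is a member, and of 20 tested 18 were higher in Stat3β TG, with a median log2 fold change of 0.86. The 2 lower were Il1r2, averaging 554 in Stat3β TG and 1439 in WT, and Clec4d, averaging 221 and 329. At an unadjusted p under 0.05 limma gave 9 higher and 0 lower, against 3.56% and 2.54% of all genes. It passed 0 adjusted, while DESeq2 passed Fpr2 and Fpr1, against 0.0712% of all genes as higher. The summed level ran between 271394 and 385959 normalized counts in Stat3β TG and between 111617 and 246409 in WT, without overlap. WT 2 had the lowest sum, and no marker was at 0 in all libraries. In Stat3β TG most of the sum came from S100a8 and S100a9, each of which lay apart between the groups. S100a9 ran between 109671 and 153361 in Stat3β TG and between 22318 and 95326 in WT. Slpi, by contrast, was higher in WT 3 (44717) than in any Stat3β TG library (30936 or less). Every Stat3β TG library lay above every WT library in 8 of 20 markers, as in 5.87% of all genes. Fpr1 was at 831, 648 and 311 in Stat3β TG and 192, 86.6 and 131 in WT. Wfdc21 was at 875, 806 and 788 in Stat3β TG and 393, 167 and 412 in WT, and Trem3 averaged 4001 and 2287. The part of mature cells, of donor or host origin, in the members' values was not tested.

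Summed markers of other cell types overlapped between the groups. Of 11 tested monocyte and macrophage markers 8 were higher and 3 lower (median 0.82 on the log2 scale), with summed levels of 44753 to 61757 normalized counts in Stat3β TG and 45499 to 53828 in WT. Eosinophil markers summed to 6524 to 12063 in Stat3β TG and 9771 to 51523 in WT, with 2 of 5 tested higher and 3 lower. Prg2, an eosinophil granule protein, was at 7055, 4094 and 4024 in Stat3β TG, against 36893, 8375 and 28343 in WT, and passed by DESeq2 (adjusted p = 0.00182) but not by limma (adjusted p = 0.668). Basophil and mast cell markers summed to 3680.3 to 7200.3 in Stat3β TG and 4331 to 6019.9 in WT (2 of 5 tested higher). Megakaryocyte markers summed to 1048 to 2132 in Stat3β TG and 717 to 2489 in WT (3 of 3 higher). B lineage markers came to 1215 to 2097 in Stat3β TG and 1243 to 1808 in WT (2 of 2 higher), nearly all from Cd79b, and the T and NK cell markers to 719 to 977 in Stat3β TG and 123 to 1501 in WT (4 of 4 higher), with Cd3e at 0 in all libraries. Dendritic cell markers summed to 3398 to 7993 in Stat3β TG and 1462 to 12764 in WT (1 of 3 higher), mostly Flt3. Erythroid markers reached no more than 152 in Stat3β TG and 311 in WT (0 of 2 higher), and stroma and endothelium markers came to 2012 to 2387 in Stat3β TG and 2148 to 4945 in WT (2 of 3 higher), mostly Pdgfrb. The part of any of these cells in the members' values was not tested.

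Within the families of the members, most other genes were scarce. Of 15 listed, 7 were tested, 6 higher and 1 lower in Stat3β TG. Their median was 0.64 (log2), with 0 at an unadjusted p under 0.05. Chia1, Pglyrp3 and Mmp3 were listed at 0 in all libraries. Mmp25, a membrane-bound metalloproteinase of neutrophils, was at 1251, 405 and 293 in Stat3β TG and 535, 126 and 284 in WT. Pglyrp2 was near the limit of the filter, at 26.8, 20.9 and 29.2 in Stat3β TG and 23.9, 14.9 and 11.3 in WT.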

How the data were processed

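RNA-seq levels were analysed in 6 libraries of sorted mouse blasts, grouped by sample title. FastQC, STAR and DESeq2 were used with GRCm38 (mm10), per the submitters' processing notes; tool versions, gene counter, strand setting and annotation release: not given in the sources used here. What the authors deposited is a non-negative signal, normalized counts by Entrez gene ID, as 1 column for each library. In each library they were whole multiples of 1 step, within 0.001 for 100% of 146724 values, and dividing by the step recovered whole reads. A library's floor of 3 reads equalled 1.69 to 4.22 normalized counts, which covers counting error only. Symbols and coordinates came from RefSeq GRCm38.p6 for 24376 of 24454 IDs, and exon lengths from merged protein-coding exons of GENCODE M21.

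Genes with at least 10 normalized counts in at least 3 libraries were fitted as log2(normalized count + 1) with limma 3.58.1 (trend, robust, R 4.3.3), two-sided, group as the only term, with Benjamini-Hochberg adjustment over all genes at 0.05. Fold changes are on that scale. Alternatives were DESeq2 1.42.0 (Wald) and edgeR 4.0.16 (TMM, quasi-likelihood) on recovered reads, and other pseudocounts, filters, scalings, a replicate block and left-out libraries. The functions were tested on simulated counts. Every pair of libraries differed by more than sampling noise. The members, lists and alternatives were chosen with earlier results of these data known. Named were all members, up to 4 genes per list with the smallest p and the 5 genes nearest in profile. Genes marked as chosen after their values were seen, and Stat3 and Xist as checks of the libraries, were named too. Itgam, Pecam1, Slc22a17, Lrp2, Cebpe, S100a8, S100a9, Slpi, Il1r2, Clec4d and genes under the filter fall outside the rule by p and profile. All 179 list entries were matched by symbol. Protein sequences were not used here.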

Additional observations from a re-analysis of the deposited data

How the results depend on the processing

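The median log2 fold change of the 10 granule genes was above 0 under every alternative where it was computed. It was not computed for the DESeq2 fits with a replicate block or a left-out library. By limma 0 members passed under other pseudocounts, filters and scalings. DESeq2 passed 1 member and 17 of all genes. With WT 2 as the only WT library, limma passed 3 members and 736 genes, 8 members had an unadjusted p under 0.05 (16.2% of all genes did as higher), 9 lay apart (36.9% of all genes did as higher) and the median was 1.47. With WT 1 as the only WT library, 5 members lay apart (22.9%), with Ltf at -0.081 and Camp at -0.55. Leaving out each library in turn, limma passed 0 to 1 members and 0 to 296 genes, and the median was 0.62 to 1.17. The 296 genes and 1 member were passed without WT 1. At an unadjusted p under 0.05, members numbered 2, 4 and 5 without Stat3β TG 1, 2 and 3. The shares of all genes as higher were 1.35%, 2.01% and 2.39%. Without WT 1, 2 and 3 there were 3, 2 and 4, against 14.7%, 1.98% and 1.74%. Members apart numbered 2, 3 and 7 without Stat3β TG 1, 2 and 3, against 9.85%, 9.78% and 10.8% of all genes. Without WT 1, 2 and 3 they numbered 4, 2 and 4, against 23.7%, 8.79% and 8.49%. Camp ran between -0.12 (without WT 2) and 1.45 (without WT 1), and Hp was -0.060 under quantile normalization. The cause of these shifts was not tested.

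The correlations of same-numbered deviations from the group means were 0.14, 0.10 and -0.11, and those of the other pairs ran between -0.20 and 0.14. With 3 libraries per group they cannot show whether the replicate numbers pair the libraries. With the replicate block limma passed 0 members, with 6 at an unadjusted p under 0.05 (4.81% of all genes as higher). Added after seeing the data, DESeq2 with the block passed 3 members (Ltf, Mmp9 and Cd177; 0.546% of all genes as higher), and without each library in turn 0 to 4, with 0 without Stat3β TG 1 (0.032%), 4 without WT 1 (8.79%) and 3 without WT 3 (0.144%). Each member had at least 954 reads in every library.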
